A study of Mus musculus with 4 samples.

Results

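The cytosolic ribosomal protein genes were examined in mBMSCs, primary mouse bone marrow–derived mesenchymal stem/progenitor cells, after depletion of ZBP1, a protein that binds Z-form nucleic acids. Genes were taken by name: symbols beginning with Rpl or Rps and followed by a number, together with Rpsa, Rplp0, Rplp1 and Rplp2, and without the Rps6k kinases and names holding "-ps". This gave 82 of the 24346 rows of the expression table, 50 of the large subunit and 32 of the small subunit. RNA-seq was available for 4 samples, 2 transfected with a scrambled siRNA (siScr) and 2 with siRNA against ZBP1 (siZBP1), harvested 72 h after transfection. The cells of both groups were wild type, from the femoral marrow of C57BL/6 mice aged 3 months, and were grown as adherent cells, with no sort for a surface marker named in the methods. The methods name 2 siRNAs against Zbp1 but do not say which was sequenced, and no source states whether the replicates came from separate animals or cultures. The p-values therefore measure the spread between these samples, which may be technical.

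The cytosolic ribosome is built from a small subunit, which reads the mRNA, and a large subunit, which joins amino acids and passes the chain through an exit tunnel. Each ribosomal protein is present in a single copy per ribosome, apart from the stalk proteins, and its mRNA starts with a run of pyrimidines, the terminal oligopyrimidine (TOP) motif, through which mTORC1 and LARP1 control translation and stability of these mRNAs as a group. Ribosome production is raised by MYC, and loss of single ribosomal protein genes underlies Diamond-Blackfan anaemia.

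Expression was given as FPKM, the number of fragments scaled to transcript length and to the mapped reads of the sample, a relative level in which a lower value can come from other transcripts taking more of the reads. Read numbers were not given, so the depth behind each value is unknown and no counting interval is given. Total FPKM ran from 477974 to 492166 per sample. Zbp1, the targeted gene, was at 86.0 and 62.0 FPKM in the siScr replicates and at 11.5 and 11.6 FPKM in the siZBP1 replicates, a log2 fold change of -2.56 (SE 0.16, limma adjusted p = 0.00322). Fold changes are on the log2(FPKM + 1) scale. A mean of 1 FPKM or more was reached by 11959 genes, of which 1766 were lower and 1618 higher in siZBP1 at an adjusted p under 0.05. An exact permutation test of 2 samples against 2 cannot go below a two-sided p of 0.333, so single summed values are given without a test.

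The ribosomal protein transcripts took a smaller share of the transcriptome after ZBP1 depletion. Their summed level was 49643 and 47154 FPKM in the siScr replicates and 39917 and 40181 FPKM in the siZBP1 replicates. The means were 48398 ± 1760 and 40049 ± 186 FPKM (SD, n = 2 each), 17.3% lower in siZBP1. As a share of all FPKM in a sample, the sum was 10.1% and 9.87% in siScr and 8.26% and 8.39% in siZBP1. The 4 samples did not overlap on either measure, and the gap between groups exceeded the gap between the siScr replicates. In bulk RNA, fewer cells of a type and less RNA per cell cannot be told apart.

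**Figure D1:**
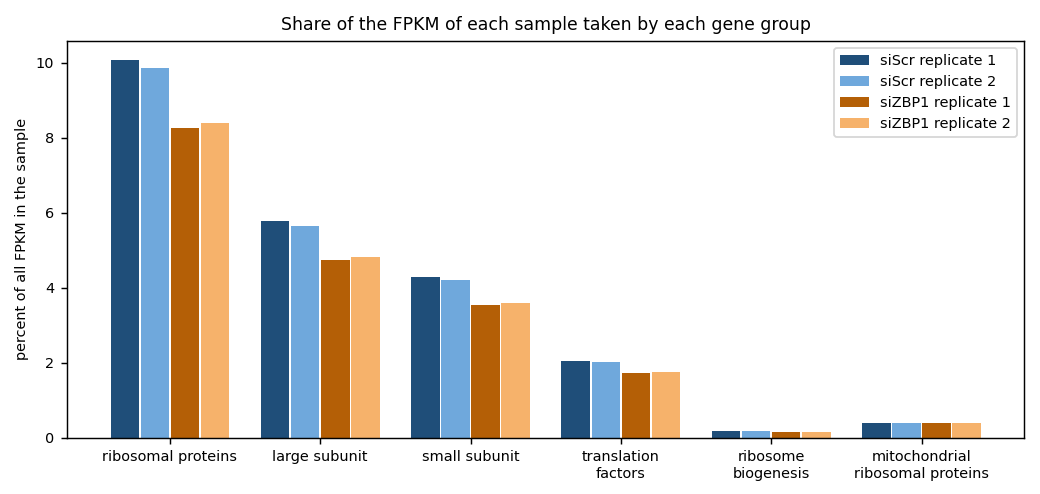
Bars give the percent of all FPKM in each of the 4 samples that came from each gene group. The ribosomal protein bars stand at 10.1% and 9.87% in the siScr replicates and at 8.26% and 8.39% in the siZBP1 replicates, and both subunits show the same order.

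Of the 82 genes, 80 reached a mean of 1 FPKM and were tested. Rpl10l, a testis paralogue of Rpl10, was listed at 0 in each sample, and Rpl3l, a muscle paralogue of Rpl3, was at 0.0990 FPKM in siScr replicate 2 and listed at 0 elsewhere. Limma called 55 of the 80 lower (68.8%), against 14.8% of all genes tested, and 0 higher, against 13.5%. At an unadjusted p under 0.05, 67 were lower and 0 higher, against 2549 and 2473 of all 11959 genes tested. The shares were equal in the subunits, with 33 of 48 genes of the large subunit and 22 of 32 of the small subunit lower. The median log2 fold change was -0.24 over the ribosomal protein genes and 0.0045 over all genes tested. Among the other 270 genes with a mean of at least 200 FPKM the median was 0.07. Of these, 57 were lower (21.1%) and 82 higher (30.4%), against 14.8% and 13.5% of all genes tested. They include small RNA genes, from Scarna2 at -9.12 to Snord2 at 5.08.

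The direction was common to most members. Both siZBP1 replicates lay below both siScr replicates for 76 of the 80 genes, against 33.7% of all genes tested, and above them for Rpl7l1 alone, against 34.7%. The groups overlapped for Rpl26, Rpl30 and Rps29. The siScr replicates differed too: replicate 1 was above replicate 2 for 70 genes, with a median log2 difference of 0.07. Each siZBP1 replicate against each siScr replicate gave medians between -0.28 and -0.21, and between the siZBP1 replicates the median was -0.01. Without siZBP1 replicate 1 or 2 the median log2 fold change was -0.23 and -0.24, and the ribosomal protein calls were lost. The Zbp1 call was lost in the same fits, which hold a single siZBP1 sample. Quantile normalization left 33 lower, beside 12.7% of all genes, with a median of -0.15. It gave positive fold changes to 8 genes that were negative otherwise, among them Rpl10, Rps3 and Rps25, for which the direction is uncertain.

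**Figure D2:**
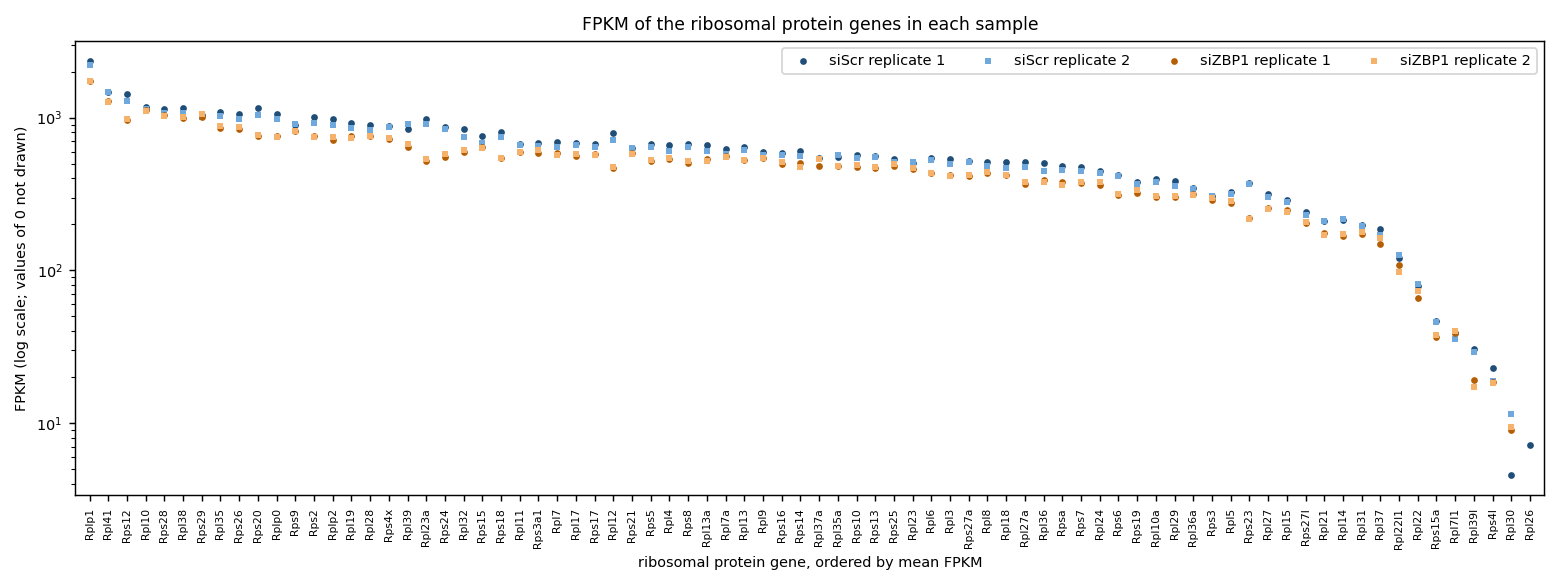
Points give the FPKM of 78 tested ribosomal protein genes in each sample on a log scale, ordered by mean FPKM, with values of 0 not drawn. Rplp1 is the highest at 2334 to 1736 FPKM, and the siZBP1 points lie under the siScr points along most of the range.

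Levels were high, with 73 of the 82 genes at a mean of at least 100 FPKM and quartiles of 345, 530 and 703 FPKM. Rplp1 and Rps12 were among the 3 highest together with Rpl41, which encodes the smallest ribosomal protein. Rpl41 stood at 1464 and 1462 FPKM in siScr and 1280 and 1265 FPKM in siZBP1, a log2 fold change of -0.20 (SE 0.04, limma adjusted p = 0.0332), a call lost with quantile normalization (adjusted p = 0.0958) and with no filter (adjusted p = 0.110). The change was nearly uncorrelated with the level: over 78 genes, those other than Rpl26 and Rpl30, Pearson's r between log2 mean FPKM and log2 fold change was -0.03 and Spearman's rho was -0.05, as a description across genes that share the same 4 libraries. Ratios of the group means were over 1.5-fold lower for 5 of the 80 tested members, Rpl23a, Rps23, Rpl39l, Rpl12 and Rps24. This is a smaller share than the 8.65% of all genes tested (1035 of 11959).

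**Figure D3:**
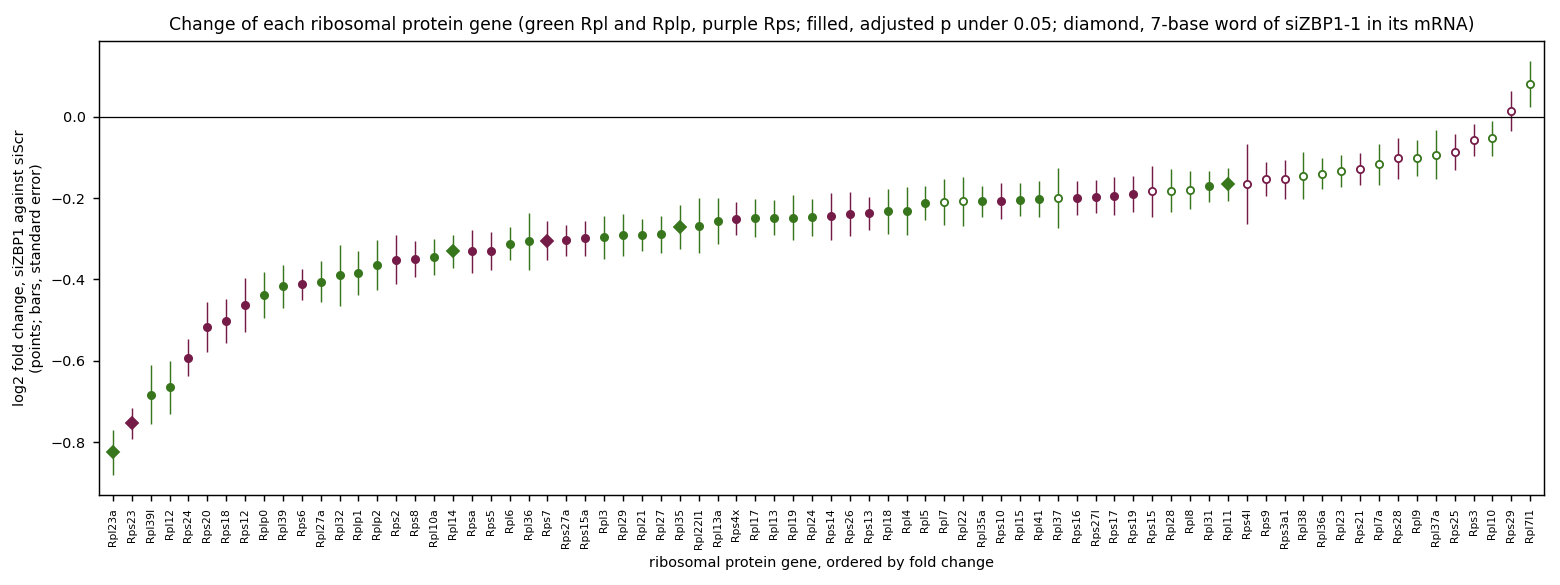
Points give the log2 fold change of siZBP1 against siScr for 76 ribosomal protein genes at a mean of at least 10 FPKM, with standard errors as bars; filled points passed limma's adjusted p of 0.05 and diamonds hold the siZBP1-1 word. Rpl23a and Rps23 stand lowest at -0.82 and -0.75, and Rps29 and Rpl7l1 are the points above 0.

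Rpl23a and Rps23 had the largest falls among the genes past the threshold. Rpl23a (chr11:78180932-78183584, minus strand, GRCm38), a large subunit protein at the mouth of the exit tunnel where nascent chains meet targeting factors, was at 977 and 907 FPKM in siScr and 522 and 540 FPKM in siZBP1. Its log2 fold change was -0.82 (SE 0.06, limma adjusted p = 0.00343). Rps23 (chr13:90922958-90924950, plus strand), which lies at the decoding centre, was at 374 and 366 FPKM in siScr and 220 and 218 FPKM in siZBP1. Its log2 fold change was -0.75 (SE 0.04, adjusted p = 0.00242). In both genes each siZBP1 value was far below the lower siScr value, and the replicates lay close together.

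These mRNAs carry a match to the seed of siZBP1-1, and the sequences are shown for that reason. An siRNA can lower mRNAs other than its target through its seed, bases 2 to 8 of the strand that guides cleavage. Capitals mark the 7-base word that pairs with the seed, CAGCCAA for siZBP1-1 and TCCGGGA for siZBP1-2, searched in the sense direction in 1 mRNA model a gene from GENCODE. The first pair of sequences is the target sites in the Zbp1-201 transcript, the siZBP1-1 site in the coding part of exon 3 (chr2:173215780-173215798, minus strand) and the siZBP1-2 site in the 5′ UTR in exon 1 (chr2:173218901-173218919, minus strand). The next 3 are 30-base windows of the mRNA around the words of Rpl23a, in its 5′ UTR (chr11:78183533-78183562, minus strand) and coding sequence (chr11:78182825-78182854, minus strand), and of Rps23, in its coding sequence (chr13:90924331-90924360, plus strand). The last is from a gene with the word and a smaller fall, the coding sequence of Rpl11 (chr4:136052599-136052628, minus strand).
Zbp1, siZBP1-1 site: gggaatgacgaCAGCCAAa
Zbp1, siZBP1-2 site: gggtatttgttTCCGGGAt
Rpl23a, 5′ UTR: gccatccttttCAGCCAAgatggcgccgaa
Rpl23a, coding: ggctccggaggCAGCCAAaatatcctcgga
Rps23, coding: ttgaggccaaaCAGCCAAattctgccatca
Rpl11, coding: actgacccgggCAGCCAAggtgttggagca

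The siZBP1-1 word was in 7 of 79 ribosomal protein genes with an mRNA model (8.86%), among them Rpl23a, Rps23, Rpl14 and Rpl11, against 31.6% of 10960 genes. These shares were not adjusted for length, and the member mRNAs are shorter, with a median of 775 bases against 2921. Each of the 7 was called lower (median -0.30 on the log2 scale), and 48 of the 72 without the word were lower, with a median of -0.24. The word was followed by A, an 8-base match, in Rpl23a and Rps23 and in no other member. Over all genes with a model, 21.6% of those with the 7-base word and 12.3% of those without it were lower. With the word in the 5′ UTR, coding part or 3′ UTR, 22.5%, 19.5% and 28.9% were lower. Only 1 of the members held it in the 3′ UTR. The 8-base match was in 1090 genes, of which 24.5% were lower, with a median of -0.09. The siZBP1-2 word was in 7 members, of which 5 were lower, with a median of -0.27, and 50 of the 72 without it were lower, with a median of -0.24. Over all genes with a model, 312 of 1909 with the siZBP1-2 word (16.3%) and 1355 of 9051 without it were lower. Its 8-base match was in 4 members, of which 3 were lower. Rpl26, Rps24, Rps2 and Rps13 held the siZBP1-1 word in other transcript models only. The part of a seed match in these levels was not tested.

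Rpl39l, Rpl12 and Rps24 followed. Rpl12 (chr2:32961559-32965345, plus strand), part of the stalk base where elongation factors dock, was at 793 and 710 FPKM in siScr and 472 and 474 FPKM in siZBP1, a log2 fold change of -0.66 (SE 0.07, limma adjusted p = 0.00610). Rps24 (chr14:24487125-24496959, plus strand), needed for maturation of the small subunit rRNA, was at 867 and 840 FPKM in siScr and 556 and 575 FPKM in siZBP1, a log2 fold change of -0.59 (SE 0.04, adjusted p = 0.00401). The groups did not overlap for either gene. Rps20 and Rps18, of the small subunit head, came next with log2 fold changes of -0.52 and -0.50 (limma adjusted p = 0.00892 and 0.00726).

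In the small subunit, 5 genes encode proteins at the mRNA entry and decoding sites. Of these, Rps23 and Rps2 were lower past the threshold and Rps3, Rps9 and Rps15 were not, and the median was -0.18. This was 40%, against 68.8% of the ribosomal protein genes and 14.8% of all genes. Rps3, which lines the mRNA entry channel and also has a role in DNA repair, was at 307 and 307 FPKM in siScr and 290 and 300 FPKM in siZBP1, a log2 fold change of -0.06 (limma adjusted p = 0.325). Of 8 proteins of the platform and mRNA exit, 5 were lower (62.5%, near the 68.8% of the ribosomal protein genes), with a median of -0.22. Among these 8, Rpsa, which as a precursor is also known as the laminin receptor, had a log2 fold change of -0.33 (SE 0.05, adjusted p = 0.0159).

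Rps6, Rps27a and Rps12 fell. Rps6, the substrate of S6 kinase whose phosphorylation is read as mTORC1 activity, was at 421 and 414 FPKM in siScr and 312 and 314 FPKM in siZBP1, a log2 fold change of -0.41 (SE 0.04, limma adjusted p = 0.00530). Rps27a, made as a fusion with ubiquitin, had a log2 fold change of -0.30 (adjusted p = 0.0101). Rps12 was at 1419 and 1275 FPKM in siScr and 970 and 982 FPKM in siZBP1, a log2 fold change of -0.46 (SE 0.07, adjusted p = 0.0126). For Rps6 the gap between groups was many times that between replicates, and for Rps12 the siScr replicates lay further apart than the siZBP1 replicates.

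In the large subunit, the 4 genes of the stalk and its base were lower, with a median of -0.41. Among all ribosomal protein genes 68.8% were lower, and among all genes 14.8%. The stalk, which recruits and activates the translation GTPases, is made of Rplp0 with dimers of Rplp1 and Rplp2. Rplp0 was at 1058 and 977 FPKM in siScr and 756 and 745 FPKM in siZBP1, a log2 fold change of -0.44 (SE 0.06, limma adjusted p = 0.010). Rplp1, the most abundant ribosomal protein transcript, was at 2334 and 2208 FPKM in siScr and 1736 and 1742 FPKM in siZBP1, a log2 fold change of -0.38 (adjusted p = 0.0118). Rplp2 was at 977 and 900 FPKM in siScr and 709 and 748 FPKM in siZBP1, a log2 fold change of -0.36 (adjusted p = 0.0181). The groups did not overlap for any of the stalk genes, and with quantile normalization Rplp2 missed the threshold (adjusted p = 0.0724).

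Rpl5 and Rpl11, which with 5S rRNA form the particle that binds MDM2 and stabilises p53 when ribosome assembly fails, had log2 fold changes of -0.21 and -0.17 (limma adjusted p = 0.0257 and 0.0402). With quantile normalization these were -0.13 and -0.010 (adjusted p = 0.0664 and 0.893), and the Rpl11 call was also lost with median centring (adjusted p = 0.0651) and with no filter (adjusted p = 0.0853). Of the 3 proteins near the peptidyl transferase centre, Rpl3 was lower at -0.30 (adjusted p = 0.0200), while Rpl8 was at -0.18 (adjusted p = 0.0508) and Rpl10 at -0.05 (adjusted p = 0.413). Rpl10, a protein added late in subunit maturation, was at 1166 and 1140 FPKM in siScr and 1115 and 1107 FPKM in siZBP1. Of 8 proteins along the exit tunnel, 7 were lower (87.5%, against 68.8% of the ribosomal protein genes and 14.8% of all genes), with a median of -0.26. Rpl26 was not called, at 7.16 FPKM in siScr replicate 1 and listed at 0 elsewhere, and its copy Gm15772 is described below. Rpl4 and Rpl22l1 lay just inside the threshold (adjusted p = 0.0472 and 0.0456) and Rpl8 and Rpl7 just outside (adjusted p = 0.0508 and 0.0547).

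Rpl13a, often used as a reference gene for RT-qPCR, stood at 659 and 607 FPKM in siScr and 537 and 522 FPKM in siZBP1, a log2 fold change of -0.26 (SE 0.06, limma adjusted p = 0.0335). The call was lost with quantile normalization, where the log2 fold change was -0.13 (adjusted p = 0.0977), and with no filter (adjusted p = 0.0614). Rplp0, another common reference, is described above.

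Paralogues were compared with their partner genes. Rpl39l, a paralogue of the tunnel protein Rpl39 known for its part in male germ cells, was at 30.6 and 29.1 FPKM in siScr and 19.3 and 17.2 FPKM in siZBP1, a log2 fold change of -0.68 (SE 0.07, limma adjusted p = 0.00704). Rpl39 was at 848 and 903 FPKM in siScr and 642 and 669 FPKM in siZBP1, a log2 fold change of -0.42 (adjusted p = 0.010). Both fell with no overlap between groups, and the difference between the pair was not tested.

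Rpl22l1 was at 121 and 127 FPKM in siScr and 109 and 97.2 FPKM in siZBP1 (log2 fold change -0.27, limma adjusted p = 0.0456), above its partner Rpl22, which ranged from 66.0 to 81.2 FPKM (-0.21, adjusted p = 0.0634). Rps27l, a p53-responsive paralogue of Rps27, had a log2 fold change of -0.20 (adjusted p = 0.0299), which missed the threshold without limma's trend (adjusted p = 0.0770), and Rps27 has no row of its own to set beside it. The Rpl22l1 call was lost with no filter (adjusted p = 0.0661) and with median centring (adjusted p = 0.0568). Rps4l, annotated in GENCODE as a transcribed processed pseudogene, was at 22.8 and 18.9 FPKM in siScr and 18.6 and 18.3 FPKM in siZBP1 (-0.16, adjusted p = 0.275), and its partner Rps4x had -0.25 (adjusted p = 0.0167, and 0.143 with quantile normalization). Rpl7l1, a nucleolar relative of Rpl7 that acts in ribosome assembly, was at 38.7 and 35.8 FPKM in siScr and 38.7 and 40.1 FPKM in siZBP1 (0.08, adjusted p = 0.344), and Rpl7 had -0.21 (adjusted p = 0.0547).

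A few genes had fold changes near 0. Rps29, a zinc-binding protein of the small subunit head, was at 1046 and 1015 FPKM in siScr and 1017 and 1063 FPKM in siZBP1, a log2 fold change of 0.01 (SE 0.05, limma adjusted p = 0.866), and its sign turned when the FPKM were rescaled without the ribosomal protein genes or 1 replicate was left out. Rps25, which is needed for initiation from viral internal entry sites, had a log2 fold change of -0.09 (SE 0.04, adjusted p = 0.220). A p above the threshold does not show that these levels were equal. Of 18 genes mutated in Diamond-Blackfan anaemia with a row of their own, 15 were lower, with a median of -0.21. This was 83.3%, against 68.8% of the ribosomal protein genes and 14.8% of all genes. Rps29, Rps28 and Rpl26 were not called, and the Rpl26 row, listed at 0 in most samples, is taken up below.

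Some values are uncertain because the reads of near-identical genes may be split. Of 81 members with a coding sequence or transcript to search, 75 had a copy in GENCODE of at least 95% identity over at least 90% of the length, and 13 had such a copy with a row in the table. Rpl26 was listed at 0 in 3 samples and was at 7.16 FPKM in siScr replicate 1, while its copy Gm15772 (99.5% identity) was at 945 and 879 FPKM in siScr and 765 and 783 FPKM in siZBP1, a log2 fold change of -0.24 (limma adjusted p = 0.0373). Rpl30 was at 4.60 and 11.5 FPKM in siScr and 9.07 and 9.44 FPKM in siZBP1 (adjusted p = 0.613), while its copy Gm12191 (99.7% identity) was at 624 and 608 FPKM in siScr and 514 and 540 FPKM in siZBP1 (-0.22, adjusted p = 0.0286). The copies stood at the level of a ribosomal protein gene and the named rows did not.

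Rps27 and Rpl34 have no row of their own. The row shared by Rps27 and Rps27rt was at 73.8, 607, 33.5 and 491 FPKM in siScr replicates 1 and 2 and siZBP1 replicates 1 and 2, and the row of Rps27rt at 1258, 607, 922 and 490 FPKM, so the split between rows differed by replicate number. The sums were 1332 and 1214 FPKM in siScr and 955 and 980 FPKM in siZBP1, a log2 ratio of -0.40. For Rpl34 and its pseudogene the summed rows were at 847 and 818 FPKM in siScr and 736 and 708 FPKM in siZBP1, a log2 ratio of -0.21. Neither sum overlapped between groups.

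The gene models of the members are short. Their median mRNA length was 775 bases, with a coding part of 456 and a 3′ UTR of 72, against 2921, 1368 and 969.5 bases over all genes tested with a model. Within the 77 members at 10 FPKM or above with a model, Pearson's r of the log2 fold change with mRNA length was -0.08, with 3′ UTR length -0.08 and with GC content 0.13. The members lie on 19 chromosomes, and on 16 of them each tested member had a negative fold change. A small nucleolar RNA gene lies inside 30 of the tested members, where introns commonly host the guides of rRNA modification. Of those 30, 22 were lower with a median of -0.25, and of the other 50, 33 were lower with a median of -0.22.

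Promoter sequence was compared because ribosomal protein genes share an initiator within a pyrimidine run, at which the TOP mRNA begins. RefSeq windows (GRCm38.p6, from 250 bases before to 50 bases after the start) were matched for 61 members. The pyrimidine word CTTTCC, read on the sense strand within 50 bases of the start, was in 29.5% of members and 5.43% of 27025 genes, and 32.8% and 10.3% held it on either strand. The ETS word CCGGAAG was in 41.0% and 9.93% over the whole window on either strand, and the YY1 word AAGATGG in 14.8% and 7.28%. TATAAA was in 11.5% of members and 15.7% of genes over the whole window on either strand. Within 50 bases of the start the order was the other way, with 8.20% of members and 5.77% of genes. CCGGAAG can share its first letters with CTTTCC and its last with AAGATGG, so a stretch can count for both, and a match is a description of letters, not a bound site. Windows of 30 bases with CTTTCC in capitals are shown for 4 genes, Rpl38 (chr11:114668568-114668597, plus strand), Rpl28 (chr7:4792955-4792984, plus strand), Rpl13a (chr7:45128719-45128748, minus strand) and Rpl39l (chr16:10170210-10170239, plus strand), to show the word in genes with small and large falls. Counted from the annotated start, the word begins at 0, 2 and 9 in Rpl38, Rpl28 and Rpl13a. In Rpl39l it begins at -6, before the annotated mRNA, so the capitals do not mark where each mRNA begins.
Rpl38: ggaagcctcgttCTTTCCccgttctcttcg
Rpl28: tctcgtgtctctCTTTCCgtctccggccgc
Rpl13a: caagacctcctcCTTTCCcaggcggctgcc
Rpl39l: tagctcccaggcCTTTCCggatttccggtg

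Members with and without the word are set side by side. Of 18 tested members with CTTTCC on the sense strand near the start, 13 were lower (median -0.22 on the log2 scale), and of 41 without it, 27 were lower with a median of -0.24. Rpl38 and Rpl28 were at -0.15 and -0.18 and not past the threshold, and Rpl13a and Rpl39l were lower.

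Other genes of the translation machinery were counted from fixed lists. Among 4 ribosomal protein genes that the name rule leaves out, Gnb2l1, which encodes the scaffold RACK1, was lower at -0.21 (limma adjusted p = 0.0300), and Fau and Rpl36al were at -0.16 and -0.04 and not past the threshold. The Gnb2l1 call was lost with quantile normalization, where the log2 fold change was -0.097 (adjusted p = 0.174), and with no filter (adjusted p = 0.0584). Of 31 translation factors and other TOP mRNAs, 11 were lower (35.5%, against 14.8% of all genes) and 0 higher (against 13.5%). At an unadjusted p under 0.05 there were 16 and 1, against 2549 and 2473 of all 11959 genes. The median of the list was -0.13. Eif3e, an initiation factor subunit, was at 229 and 205 FPKM in siScr and 134 and 143 FPKM in siZBP1, a log2 fold change of -0.65 (SE 0.07, adjusted p = 0.00764), and Eif4a2, a helicase, was the highest at 0.15 (adjusted p = 0.0898). Of 7 noncoding TOP genes that host small nucleolar RNAs, 4 were lower (57.1%, against 14.8% of all genes). Snhg12 was at -1.02 (limma adjusted p = 0.0144) and Snhg3 at 0.18 (adjusted p = 0.497).

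Of 46 ribosome biogenesis factors, 17 were lower (37.0%, against 14.8% of all genes) and 2 higher (4.35%, against 13.5%), with a median of -0.24. Fold changes were negative for 42 of the 46. Nop58, a core protein of box C/D particles that methylate rRNA, was at 30.4 and 30.2 FPKM in siScr and 17.1 and 17.8 FPKM in siZBP1, a log2 fold change of -0.76 (SE 0.05, limma adjusted p = 0.00324), and Rrp1, an rRNA processing factor, was higher at 0.29 (adjusted p = 0.0148). Of 77 mitochondrial ribosomal protein genes, 13 were lower (16.9%, near the 14.8% of all genes) and 2 higher (2.6%, against 13.5%). Fold changes were negative for 52 and positive for 25, with a median of -0.08, from Mrpl47 at -0.53 to Mrpl43 at 0.27. The difference between the cytosolic and mitochondrial groups was not tested.

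Among 16 MYC and mTORC1 regulators, 4 were lower (25%, against 14.8% of all genes) and 1 higher (6.25%, against 13.5%), with a median of 0.01. Myc was at 23.2 and 19.7 FPKM in siScr and 9.34 and 10.1 FPKM in siZBP1, a log2 fold change of -1.06 (SE 0.10, limma adjusted p = 0.00526). Eif4ebp1, an inhibitor of cap-dependent initiation, was lower at -1.37 (adjusted p = 0.00520), and its relative Eif4ebp2 was higher at 0.51 (adjusted p = 0.00884). Larp1, the TOP mRNA binding protein, and Akt1s1 were also lower, at -0.52 and -0.31 (adjusted p = 0.00697 and 0.0111). Myc, Larp1 and Akt1s1 fall outside the naming rule and were named after their values were seen. Mtor and Rptor were at -0.0044 and 0.15 and not past the threshold.

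**Figure D4:**
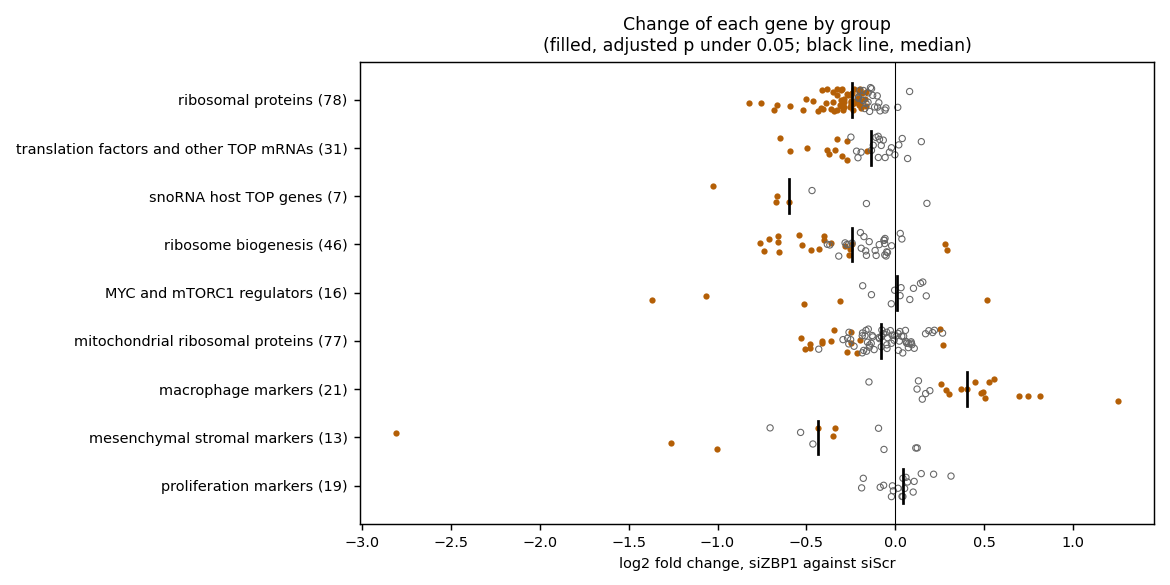
Points give the log2 fold change of siZBP1 against siScr for each gene of a group, filled where limma's adjusted p was under 0.05, with the group median as a black line and the number of genes in brackets; ribosomal proteins are those at a mean of at least 10 FPKM. Most ribosomal protein points lie between -0.5 and 0, the macrophage markers lie mostly above 0, and the proliferation markers spread about 0.

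Markers of cell types moved with the groups. Of 21 macrophage markers, 15 were higher (71.4%, against 13.5% of all genes) and 0 lower (against 14.8%). At an unadjusted p under 0.05, 16 were higher and 1 lower, against 2473 and 2549 of all 11959 genes. The summed level of the macrophage markers was 12177 and 13180 FPKM in siScr and 17858 and 17114 FPKM in siZBP1. The defining genes Cd68, Csf1r and Adgre1 were present in each sample, with Csf1r at 467 to 584 FPKM. Of 13 mesenchymal markers tested, 6 were lower (46.2%, against 14.8% of all genes) and 0 higher (against 13.5%). At an unadjusted p under 0.05, 8 were lower and 0 higher, against the same 2549 and 2473 genes. The summed level of all 14 mesenchymal markers was 6060 and 5043 FPKM in siScr and 3613 and 3647 FPKM in siZBP1. Most of the fall in this sum was in Col1a1, at 3066 and 2520 FPKM in siScr and 1128 and 1191 FPKM in siZBP1. Fold changes were negative for 11 of the 13 and positive for 2, Alcam and Col3a1. Among the negative, Col1a2 was at -0.09 (limma adjusted p = 0.450). Lepr was at or below 1.28 FPKM and Pdgfra at or below 3.97 FPKM. Both kinds of marker were therefore present in cells labelled mesenchymal, and their part in the ribosomal protein levels was not tested.

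Of 19 proliferation markers, 0 were lower and 0 higher by limma's adjusted p, against 14.8% and 13.5% of all genes. At an unadjusted p under 0.05 there were also 0 and 0, and the median was 0.04. Their summed level was 382 and 551 FPKM in siScr and 465 and 481 FPKM in siZBP1. The siScr replicates thus lay on either side of both siZBP1 replicates, and the counts do not show that proliferation was equal. Of 15 lymphoid, erythroid, granulocytic and endothelial markers with a row, 2 were tested and 6 were listed at 0 in each sample, among them Cd3g, Mpo and Elane. Their summed level was 4.29 to 5.23 FPKM in siScr and 4.46 to 9.32 FPKM in siZBP1.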

How the data were processed

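The deposited values are FPKM per gene and replicate, made by the authors from TruSeq libraries of poly(A) RNA mapped to mm10. The methods name Tophat and HTSeq and the submitters' processing notes name TopHat and Cufflinks, and the annotation and any filter are not given in the sources used here. The deposited columns of group means equal the means of the replicates and were not used. From the FPKM, log2(FPKM + 1) was tested for genes with a mean of at least 1 FPKM over the 4 samples with limma (version 3.58.1, R 4.3.3) with a mean-variance trend, two-sided, and Benjamini-Hochberg adjustment over 11959 genes at a threshold of 0.05, in 1 fit of siZBP1 against siScr. The fit was tested on simulated data. Members and lists were chosen with earlier results of these data known. The genes named are the 6 largest falls and 6 largest rises, of which 3 were positive, the 3 highest and 3 lowest levels, the genes of the 5S particle, stalk, peptidyl transferase and paralogue lists with partners, Rpl13a, Rps6, Rps27a, Rpsa, Zbp1, and the extremes of each other list. Other genes were named after their values were seen. Gene models and coordinates are from GENCODE M21 (GRCm38, the build of the files), and copies were found with BLAST+ (version 2.17.0). Alternatives covered the pseudocount, the filter, the scaling, the variance model, the small RNA genes, a replicate block and each replicate left out. A few genes are counted but not reported by name here, and are not drawn in the plots of single genes.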

Additional observations from a re-analysis of the deposited data

How the results depend on the processing

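The median log2 fold change of the ribosomal protein genes was negative and the ratio of their summed FPKM below 1 in each alternative run for them. The number called lower was 55, and between 39 and 65 with other pseudocounts, filters, median centring, rescaling, robust fitting and without small RNA genes. Over all genes, 14.8% were lower in the main fit and 8.97% to 17.6% in those alternatives. The 39 and the 8.97% both came with no filter. The number of members called lower was 33 with quantile normalization, where the median was -0.15, and 32 without limma's trend. In each of these fits 12.7% of all genes were lower, and the cause was not tested. Leaving out 1 replicate gave 0 to 59 lower, 0 to 1 higher (Rpl30, without siScr replicate 2), medians from -0.28 to -0.22 and summed ratios from 0.807 to 0.849, with 48 to 1467 of all genes lower and 22 to 1248 higher. The 0 came without either siZBP1 replicate and 32 without siScr replicate 1, with 938 and 713 of all genes lower and higher; these fits have 1 residual degree of freedom among samples. With the replicate number as a replicate block, 41 were lower, all among the 55, beside 13.8% of all genes. The numbers were not taken to pair the samples: across 11959 genes the deviations of same-numbered samples correlated at r = -0.06. The split between the Rps27 and Rps27rt rows did follow the replicate number in both groups, and shared handling by number was not tested. Signs turned for genes not past the threshold: with quantile normalization Rpl10 was at 0.016, Rps3 at 0.0037 and Rps25 at 0.048, with rescaling Rps29 was at -0.00088, and with 1 replicate left out Rps29 ranged from -0.019 to 0.046, Rpl30 from -0.28 to 0.87, Rpl36al from -0.087 to 0.0038 and Snhg3 from -0.040 to 0.39. Depth is unknown, so the counting error of low values such as those of Rpl26 and Rpl30 cannot be given.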
